A study of Homo sapiens with 6 samples.

Results

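The DDIT4 and sestrin genes and the other inhibitors of mTORC1 signalling were 9 genes chosen by name: DDIT4, its paralogue DDIT4L, the sestrins SESN1, SESN2 and SESN3, the tuberous sclerosis genes TSC1 and TSC2, DEPTOR and AKT1S1. They were 9 of the 18404 genes measured by an array row with exactly 1 gene symbol. Where a gene has several such rows the brightest on average is used, but each of these 9 genes had 1 row and none shared a row with another symbol. The falls of DDIT4, SESN2 and SESN1 were known when the group was put together, so their values are given as a description, without a p-value.

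The cells were BE(2)-C, an established line from a human neuroblastoma that carries many copies of MYCN, and each RNA sample was hybridised to its own Affymetrix array. In 3 samples the cells had received 5 µM BIX01294 for 24 h, and in 3 they had received 0.05% DMSO, the solvent, for 24 h. All cultures were grown in medium with dialyzed serum, and no DMSO content is recorded for the BIX01294 samples. BIX01294 is a small-molecule inhibitor of EHMT2 and EHMT1, enzymes that methylate histone H3 at lysine 9. The study is thus of 1 line, 1 dose and 1 time. The question is how the transcripts of these inhibitors differed in treated cells.

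mTORC1 is the protein kinase complex that promotes protein synthesis and cell growth when amino acids, growth factors and energy are plentiful. Its activator is the small GTPase Rheb, which the TSC1-TSC2 complex switches off, and DDIT4 (also called REDD1), a protein made under hypoxia, glucocorticoids and endoplasmic reticulum or amino acid stress, acts through that complex. Sestrins bind GATOR2 and so restrain the Rag GTPases that bring mTORC1 to the lysosome, SESN2 being a leucine sensor, while DEPTOR and PRAS40, the product of AKT1S1, bind mTORC1 itself.

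Values are the deposited log2 expression values, and a change is the mean of BIX01294 minus the mean of DMSO with its standard error from limma, fitted over all 18404 genes with Benjamini-Hochberg adjustment and a threshold of 0.05. Array medians lay between 6.94 and 7.01. Precision is limited by having 3 arrays per group. The labels call the samples replicates, and their titles do not say whether these are separate cultures. The p-values set a difference against the spread between these samples only. Of 8 markers of adrenergic neuroblastoma fixed for the check of the line, 7 were measured and all 7 lay above the upper quartile of every array. Of these, ISL1 rose by 0.34 and GATA3 and PHOX2A fell by 0.23 and 0.20 on the log2 scale, and the other 4 did not pass. Of 3 measured leukocyte markers, 2 were below the lower quartile in all 6 arrays. Of 6 mesenchymal or fibroblast markers, 1, LUM, lay above the upper quartile of every array and 2 lay below the median of every array. DCN, LUM and FBN1 fell and none rose, and the summed log2 level of the 6 was 43.96 to 44.13 in BIX01294 arrays, against 46.41 to 46.71 in DMSO arrays. The part of this difference in the results below was not tested. With no detection call, a low value shows neither presence nor absence of a marker.

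Of the 9 genes, 7 passed the threshold and all 7 were lower in BIX01294, while DDIT4L and AKT1S1 did not pass. Among all genes tested, 23.6% passed and 10.7% passed as lower, and nothing is read from the count of 7, since the genes were chosen with results of this comparison known. These shares are not those of genes of like level. With genes under the median level left out, 4749 of 9202 genes passed, 1899 of them as lower, beside 7 of the 8 members that remained. The same 7 genes had groups that did not overlap, as did 40.1% of all genes, and 18.7% did so with BIX01294 lower. The median change of the 9 was -0.27, beside -0.01 for all genes. DDIT4 and SESN2 were at least 2-fold lower, as were 0.364% of all genes. They were also the members past a minimum change of 0.5 on the log2 scale (limma's treat), beside 0.788% of all genes, and this too is a description, since their falls were known. In such bulk RNA, fewer cells of a type and less RNA per cell cannot be told apart.

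**Figure D1:**
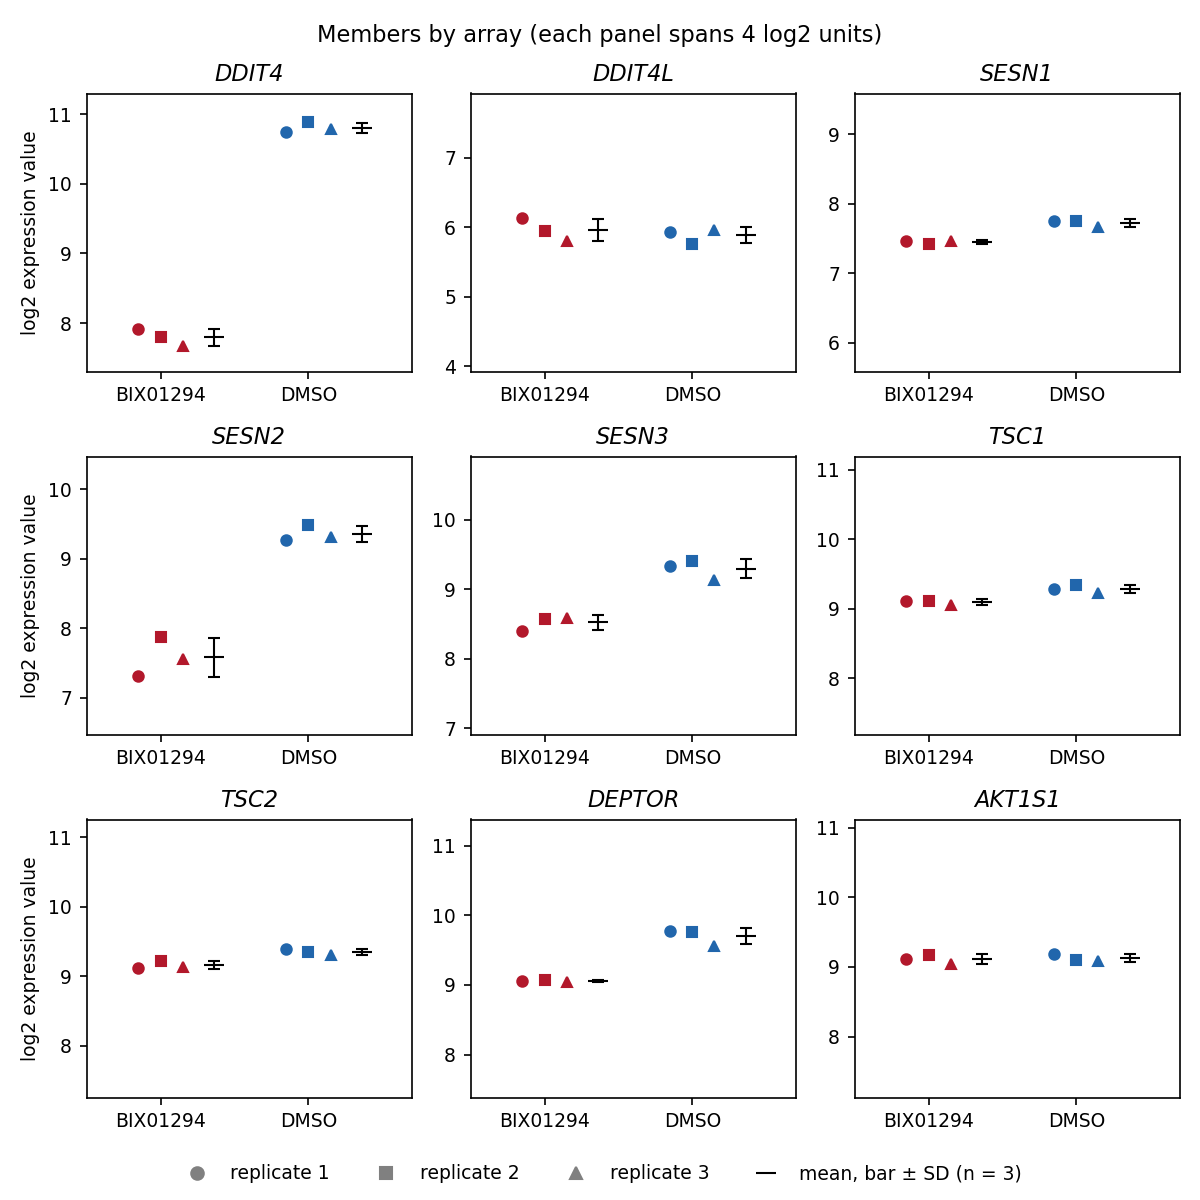
Deposited log2 expression values of the 9 genes in each array, with BIX01294 left and DMSO right, each panel spanning 4 log2 units around the gene. Symbols are replicates, and the black mark is the group mean ± SD (n = 3). The groups lie far apart for DDIT4 (7.79 against 10.81) and SESN2 (7.58 against 9.36) and overlap for DDIT4L and AKT1S1.

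DDIT4 had the widest separation of the group. It measured 7.91, 7.80 and 7.67 in the 3 BIX01294 arrays, against 10.75, 10.88 and 10.79 in the 3 DMSO arrays. All 3 treated arrays were low and close together, and the gap between the highest treated and the lowest DMSO array was 2.84. The means were 7.79 ± 0.12 in BIX01294 and 10.81 ± 0.07 in DMSO (SD, n = 3 each), a change of -3.01 ± 0.075 (SE), or 8.08-fold lower. Counted from the most negative change, DDIT4 stood at place 2 of the 18404 genes.

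The promoter of DDIT4 is shown because this gene had the largest change of the 9. The window is from RefSeq (GRCh38.p14), chr10:72273674-72273973 on the plus strand, 250 bases before to 50 after the start site, 5′ to 3′, with matches to the searched motifs in capitals.
DDIT4: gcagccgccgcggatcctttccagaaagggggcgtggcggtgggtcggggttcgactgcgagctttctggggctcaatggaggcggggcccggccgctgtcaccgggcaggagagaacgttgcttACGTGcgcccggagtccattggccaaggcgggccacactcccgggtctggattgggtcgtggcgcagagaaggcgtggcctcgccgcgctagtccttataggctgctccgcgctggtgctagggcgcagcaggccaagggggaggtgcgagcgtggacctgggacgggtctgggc
The motifs searched on both strands were TGATGNAA, the core of the C/EBP-ATF response element, CACGTG, the E-box, ACGTG, a form of the core of the hypoxia response element, which also lies within CACGTG, and TTGTTTAC, a forkhead site. Other forms of these motifs, such as GCGTG, were not searched. The DDIT4 window held 1 match, ACGTG, with its first base at position -125 from the start site, and 21.4% of the 35116 RefSeq windows of the same length hold that motif. The window had 69.7% G and C, beside a median of 58.7% over all windows. A match is a description of letters, not of a site in use.

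DDIT4L, which encodes REDD2, a related inhibitor of mTORC1, did not pass the test. It measured 6.13, 5.95 and 5.81 in the BIX01294 arrays, against 5.94, 5.76 and 5.96 in the DMSO arrays. The groups overlapped, and the difference was 0.08 ± 0.094 (SE; adjusted p = 0.610 in limma), with a 95% interval of -0.14 to 0.29. DDIT4L was dim: 24.0% of genes had a lower mean, and with no detection call in the table its level is not shown to be above background, so a change could be missed. Without BIX01294 replicate 1 its difference was -0.0042. The RefSeq window of DDIT4L held none of the 4 motifs.

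The 3 sestrins were all lower in BIX01294, with changes of -1.78 for SESN2, -0.77 for SESN3 and -0.27 for SESN1. SESN2, the stress-induced leucine-binding member, measured 7.31, 7.87 and 7.57 in the BIX01294 arrays, against 9.28, 9.49 and 9.31 in the DMSO arrays. No treated array came near a DMSO array, with a gap of 1.41, although the treated arrays themselves differed more than for any other gene of the 9. The means were 7.58 ± 0.28 in BIX01294 and 9.36 ± 0.12 in DMSO (SD, n = 3 each), a change of -1.78 ± 0.13 (SE), or 3.42-fold lower, at place 8 from the most negative change. The SD of 0.28 in BIX01294 exceeded that of 98.7% of all genes, whose median SD there was 0.076. Leaving out BIX01294 replicate 1, the lowest, gave -1.64, and leaving out BIX01294 replicate 2, the highest, gave -1.92.

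SESN3, which FOXO transcription factors are known to induce, measured 8.40, 8.57 and 8.59 in the BIX01294 arrays, against 9.34, 9.41 and 9.14 in the DMSO arrays. Every treated array was below every DMSO array by at least 0.55. SESN3 fell by 0.77 ± 0.086 (SE) on the log2 scale, 1.71-fold (adjusted p = 0.000657 in limma). SESN1, a known p53 target, had the smallest difference of the 3, with 7.47, 7.41 and 7.46 in the BIX01294 arrays, against 7.75, 7.75 and 7.66 in the DMSO arrays. The treated values were tight, with an SD of 0.030 (n = 3), and stayed 0.19 below the lowest DMSO array. The change was -0.27 ± 0.055 (SE), or 1.21-fold lower.

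The windows of SESN2, chr1:28259268-28259567 on the plus strand, and SESN3, chr11:95232426-95232725 on the minus strand, both GRCh38.p14 from RefSeq, are shown as those of the sestrins with the larger changes. Neither held any of the 4 motifs, so no letters are in capitals. Only the windows were searched, for these genes as for the others, so a motif outside them would be missed.
SESN2: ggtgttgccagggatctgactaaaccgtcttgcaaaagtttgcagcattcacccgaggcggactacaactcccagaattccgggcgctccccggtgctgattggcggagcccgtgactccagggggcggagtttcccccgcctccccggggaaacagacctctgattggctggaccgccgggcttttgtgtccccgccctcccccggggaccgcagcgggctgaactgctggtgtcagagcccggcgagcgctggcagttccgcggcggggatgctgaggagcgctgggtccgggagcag
SESN3: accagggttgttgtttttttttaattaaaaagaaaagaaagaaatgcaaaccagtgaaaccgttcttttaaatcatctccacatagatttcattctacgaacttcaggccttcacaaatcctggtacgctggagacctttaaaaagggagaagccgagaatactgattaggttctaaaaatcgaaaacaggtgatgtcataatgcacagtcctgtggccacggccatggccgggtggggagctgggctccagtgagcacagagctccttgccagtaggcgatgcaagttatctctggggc
The SESN3 window had 45.0% G and C and that of SESN2 67.0%. SESN1 has 3 start sites in the table, and none of the 3 windows held a match.

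**Figure D2:**
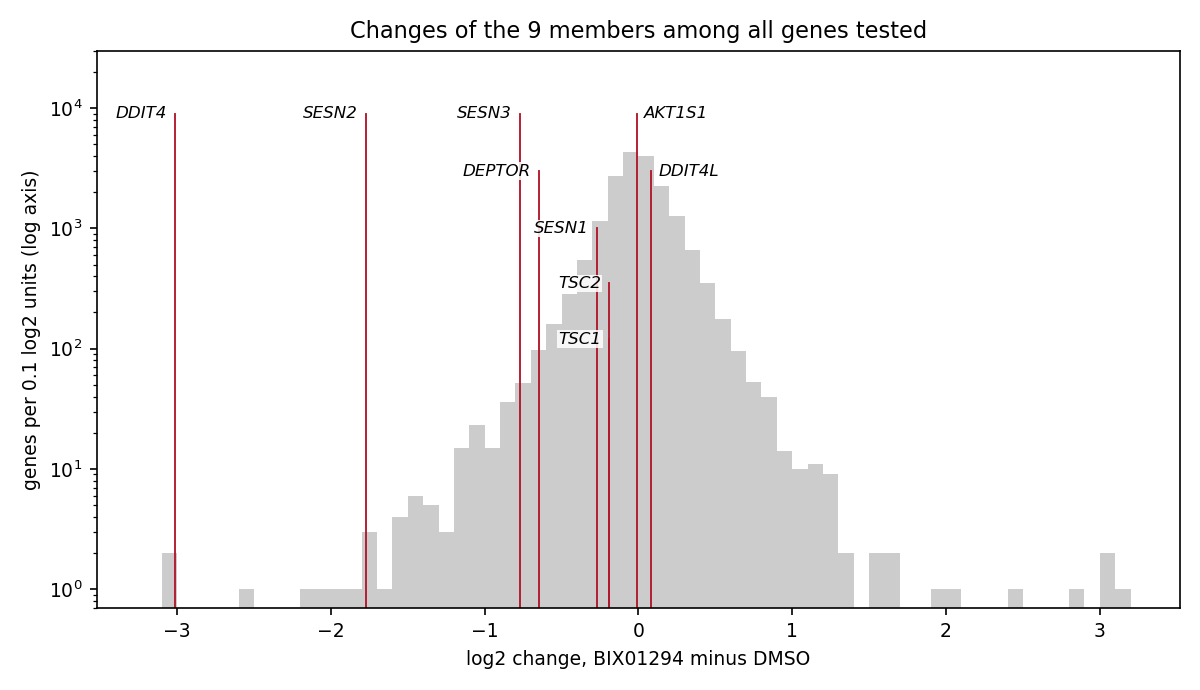
Histogram of the log2 change (BIX01294 minus DMSO) of all 18404 genes in steps of 0.1, with a logarithmic count axis, and red lines at the 9 genes. DDIT4 (-3.01) and SESN2 (-1.78) stand in the left tail, SESN3 (-0.77) and DEPTOR (-0.65) on the left shoulder, and the other 5 between -0.27 and 0.08.

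DEPTOR, which binds mTOR and inhibits both of its complexes, was the other clear fall. It measured 9.06, 9.07 and 9.04 in the BIX01294 arrays, against 9.78, 9.76 and 9.57 in the DMSO arrays. The treated arrays were nearly identical, with the smallest SD of any group of the 9 genes (0.012, n = 3), and lay 0.50 below the lowest DMSO array. DEPTOR fell 1.57-fold, a change of -0.65 ± 0.069 (SE; adjusted p = 0.000517 in limma). AKT1S1, whose product PRAS40 is the other inhibitor bound to mTORC1, measured 9.12, 9.18 and 9.05 in the BIX01294 arrays, against 9.19, 9.10 and 9.09 in the DMSO arrays. These groups overlapped, with a difference of -0.01 ± 0.060 (SE), a 95% interval of -0.15 to 0.13 and an adjusted p of 0.916 in limma, and its sign turned to 0.0212 when arrays were centred on their medians.

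TSC1 and TSC2, the subunits of the complex that switches off Rheb, differed little. TSC1, which stabilises the complex, measured 9.12, 9.12 and 9.05 in the BIX01294 arrays, against 9.29, 9.34 and 9.22 in the DMSO arrays. TSC2, the subunit with the GTPase-activating domain, measured 9.12, 9.23 and 9.14 in the BIX01294 arrays, against 9.40, 9.36 and 9.31 in the DMSO arrays. For each gene all treated arrays lay below all DMSO arrays, by 0.11 for TSC1 and 0.081 for TSC2. TSC1 fell 1.14-fold (-0.19 ± 0.057 SE, adjusted p = 0.0435 in limma), and TSC2 also fell 1.14-fold (-0.19 ± 0.057 SE, adjusted p = 0.0420 in limma). Both calls were lost when arrays were centred (adjusted p = 0.114 for TSC1 and 0.0949 for TSC2 in limma) and with the replicate number as a block (0.0682 and 0.0778). TSC1 also lost its call without any single array except DMSO replicate 3 (adjusted p up to 0.145), and TSC2 without BIX01294 replicate 1 or 3 or DMSO replicate 1 or 2 (adjusted p up to 0.134).

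Of the 7 genes with a RefSeq window, TSC2 and DDIT4 held a match and the other 5 held none. The TSC2 window is shown because it holds 3 of the 4 motifs in overlapping letters: chr16:2047735-2048034 on the plus strand, GRCh38.p14, from RefSeq, with the matches in capitals.
TSC2: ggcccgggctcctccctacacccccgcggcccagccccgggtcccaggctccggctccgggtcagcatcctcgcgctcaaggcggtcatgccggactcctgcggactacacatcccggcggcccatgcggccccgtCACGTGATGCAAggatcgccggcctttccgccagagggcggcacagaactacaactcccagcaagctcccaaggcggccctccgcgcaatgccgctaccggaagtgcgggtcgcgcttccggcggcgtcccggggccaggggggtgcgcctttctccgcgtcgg
The E-box starts at position -114 and TGATGNAA at -110, so that they share 2 letters. TGATGNAA is held by 3.62% of all RefSeq windows and CACGTG by 7.26%. A second TSC2 window, from a start site further along, held no match, and TTGTTTAC, held by 0.954% of windows, was in none of the 10 windows of the 7 genes.

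**Figure D3:**
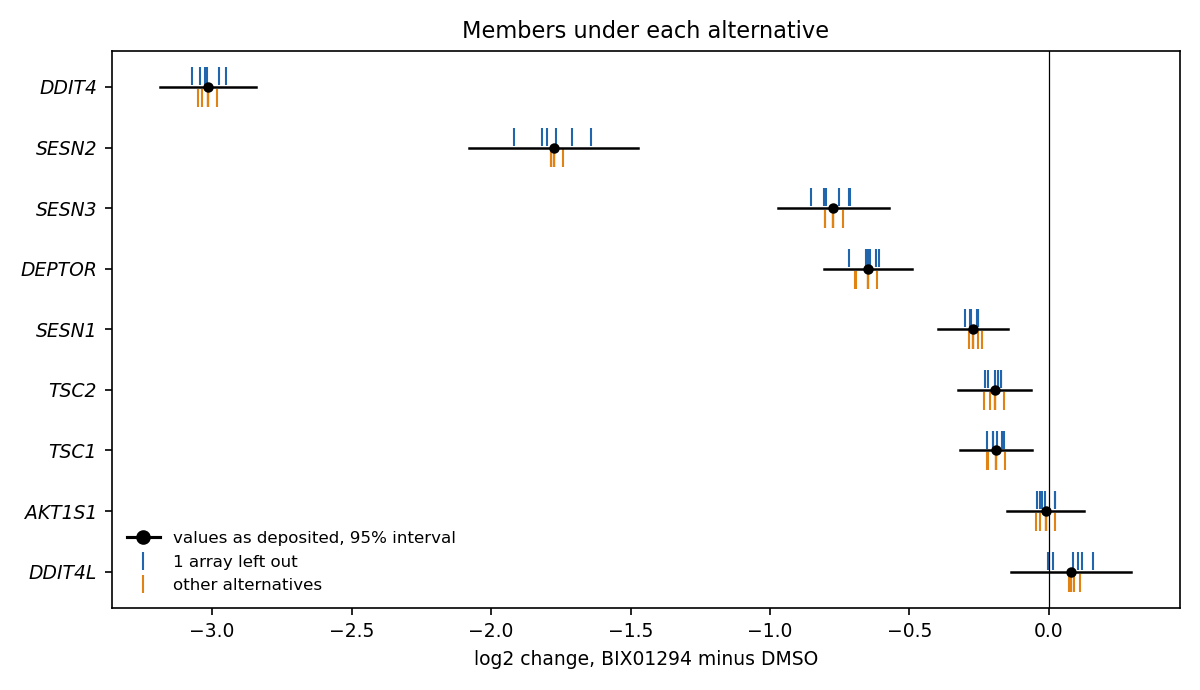
Log2 change (BIX01294 minus DMSO) of each of the 9 genes, ordered by size, with black points and 95% intervals for the values as deposited, blue marks for the fits that leave out 1 array and orange marks for the other alternatives. DDIT4 stays between -3.07 and -2.95, SESN2 between -1.92 and -1.64, and AKT1S1 and DDIT4L lie around 0.

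DMSO replicate 3 gave the lowest DMSO value for 6 of the 9 genes: SESN1, SESN3, TSC1, TSC2, DEPTOR and AKT1S1. Over all genes the same array was the lowest of the DMSO arrays for 45.6%. Its upper quartile was 8.84, below the 8.91 of each other DMSO array, and its median was 7.01, against 6.98 and 6.99. Without it the changes were -0.30 for SESN1, -0.85 for SESN3, -0.22 for TSC1, -0.22 for TSC2, -0.72 for DEPTOR and -0.03 for AKT1S1. Each was more negative than with all 6 arrays, as leaving out the lowest DMSO array must give. Why this array's level differed was not tested.

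The genes nearest to DDIT4 were found by the root mean square difference of log2 values over the 6 arrays, each gene centred on its own DMSO mean. With this centring the difference depends mostly on the size of the change. The order below thus largely repeats that of the most negative changes and does not show shared behaviour between single arrays. The nearest was CHAC1, a glutathione-degrading enzyme, at 0.117, with 7.66, 7.87 and 7.71 in the BIX01294 arrays, against 10.80, 10.94 and 10.77 in the DMSO arrays. SLC7A11, the cystine transporter, followed at 0.352, then the secreted glycoprotein STC2 at 0.637, the NKG2D ligand ULBP1 at 0.713 and TCP11L2 at 0.754. CHAC1 alone of these 5 had a fall as large as that of DDIT4 (8.49-fold), and the others fell between 3.89-fold and 5.74-fold, of which TCP11L2 averaged 4.58 in BIX01294, below the lower quartile of the arrays and not shown to be above background. SESN2 stood at place 7 in this order, at 0.899.

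For SESN2 the nearest genes were KLHL24 at 0.195, NELL1 at 0.206, asparagine synthetase (ASNS) at 0.209, the inhibin subunit INHBE at 0.226 and PDCD4 at 0.229. INHBE measured 6.06, 6.52 and 6.06 in the BIX01294 arrays, against 7.62, 7.83 and 7.61 in the DMSO arrays. BIX01294 replicate 2 was thus the highest treated array for INHBE as for SESN2, whereas it was the lowest for NELL1, KLHL24 and PDCD4. These genes were selected for likeness, so no test is given.

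**Figure D4:**
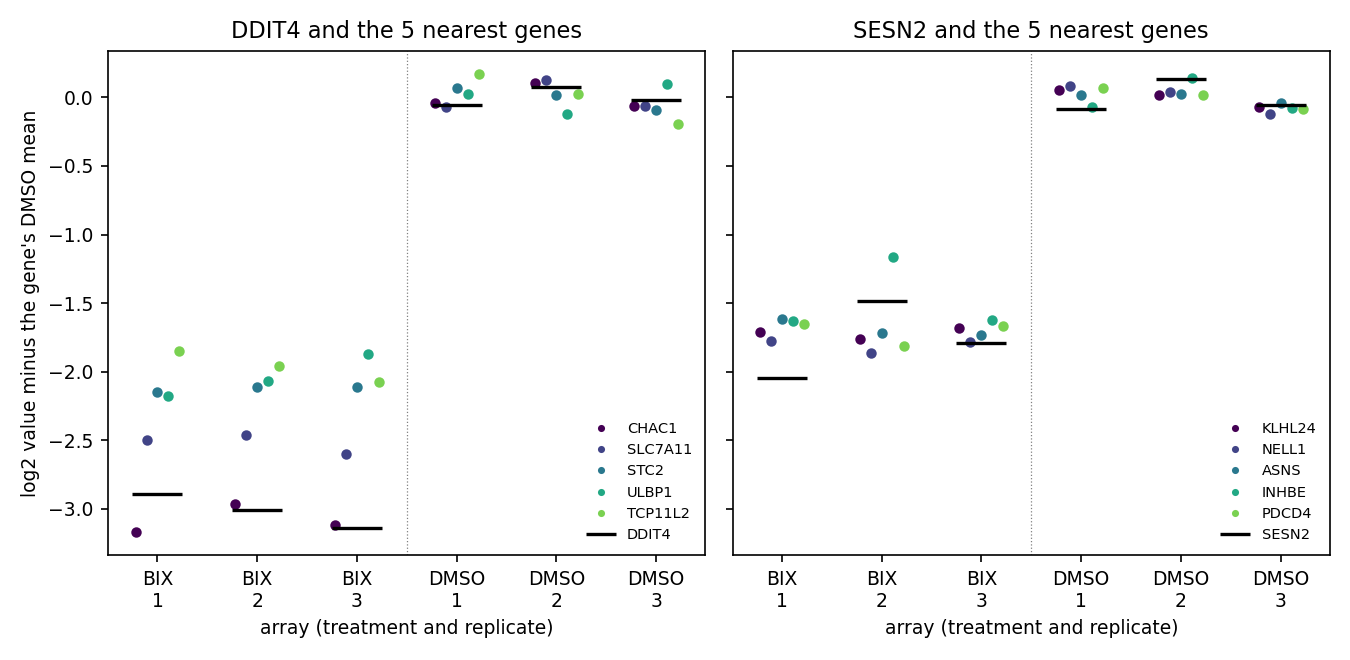
Log2 value minus the gene's own DMSO mean in each of the 6 arrays, BIX01294 left of DMSO, for DDIT4 (left panel) and SESN2 (right panel) as black bars and their 5 nearest genes as points. CHAC1 lies near the DDIT4 bar in every array, while the other 4 sit between -1.85 and -2.60 in the BIX01294 arrays.

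The rest of the pathway was described with 11 lists of 90 genes in all, of which 77 were measured and the other 13 were not analysed here. Among the 77, 9 rose, 21 fell and 47 did not pass, so that 39.0% passed, beside 23.6% of all genes. The listed genes were mostly bright: with genes under the median level left out, 66 of them remained, beside 9202 of all 18404 genes. In that setting 43 of the 66 passed, beside 4749 of the 9202, so 23.6% is not the share for genes of like level. Nor are the 12.9% higher and 10.7% lower given below. In that setting 2850 of the 9202 genes passed as higher and 1899 as lower. The median change of the 77 was -0.04. With arrays centred on their medians 12 rose and 17 fell, a share of 41.4% higher among the calls against 30.0% as deposited. The groups did not overlap for 49 of the 77 genes, beside 40.1% of all genes. The lists were chosen with earlier results of these data known, so nothing is read from these counts or from those by list below. Most genes named below had the largest changes of their list, so their adjusted p-values, taken over all genes, are a description too.

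The mTOR complexes themselves gave no call: of 6 subunits measured outside DEPTOR and AKT1S1, 0 passed in limma, and 1 had an unadjusted p under 0.05. That was MAPKAP1, a subunit of mTORC2, at 0.13 ± 0.052 (SE, adjusted p = 0.105 in limma), which passed when dim genes were left out (0.0313) and with an intensity trend (0.0193). RHEB, the activator of mTORC1, differed by 0.13 ± 0.051 (SE) and did not pass (adjusted p = 0.117 in limma). Its relative RHEBL1 measured 6.49, 6.78 and 6.35 in the BIX01294 arrays, against 7.46, 7.61 and 7.46 in the DMSO arrays. RHEBL1 was dim and fell 1.95-fold, with no overlap (adjusted p = 0.000650 in limma).

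The next list held the Rag GTPases and Ragulator, which hold mTORC1 at the lysosome, and SLC38A9. Of its 9 measured genes 4 rose and 2 fell, beside 12.9% of all genes that passed as higher and 10.7% as lower. RRAGD, the Rag GTPase RagD, measured 10.14, 10.05 and 10.14 in the BIX01294 arrays, against 9.59, 9.57 and 9.38 in the DMSO arrays. RRAGD rose 1.51-fold (adjusted p = 0.000888 in limma), and its close relative RRAGC rose 1.38-fold (adjusted p = 0.00145 in limma). The Ragulator subunit LAMTOR3 rose 1.27-fold, while RRAGB fell 1.21-fold and lost its call under centring (adjusted p = 0.0784) and without BIX01294 replicate 2 or 3 or DMSO replicate 1 or 2 (up to 0.147). RRAGA, RagA, differed by -0.002 ± 0.064 (SE).

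FNIP2, a partner of folliculin, the complex that acts on RagC and RagD, had the largest rise of the 77 genes. It measured 9.40, 9.24 and 9.28 in the BIX01294 arrays, against 8.69, 8.61 and 8.45 in the DMSO arrays. FNIP2 rose 1.65-fold (adjusted p = 0.000503 in limma), and FLCN and FNIP1 did not pass. The 3 genes RRAGD, RRAGC and FNIP2 kept their calls without any single array and under every alternative that tested them, except the test of a minimum log2 change of 0.5.

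GATOR2, the complex that sestrins bind, gave 1 rise and 1 fall among 5 measured subunits. WDR59 fell 1.57-fold, with 8.84, 8.81 and 8.92 in the BIX01294 arrays, against 9.56, 9.55 and 9.43 in the DMSO arrays (adjusted p = 0.000291 in limma). SEH1L, which is also a nuclear pore protein, rose 1.31-fold (adjusted p = 0.00136 in limma). Of 6 measured members of GATOR1, the brake on the Rags, and KICSTOR, its lysosomal anchor, 1 fell, ITFG2, by 1.18-fold. ITFG2 lost its call under centring (adjusted p = 0.0621) and without BIX01294 replicate 2 or 3 or DMSO replicate 1 or 2 (up to 0.0948). LARS1, the leucyl-tRNA synthetase, fell 1.24-fold, and the arginine sensor CASTOR1 did not pass.

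In the upstream insulin and PI3K list, 1 of 9 measured genes rose and 1 fell. The insulin receptor INSR fell 1.21-fold and lost its call under centring (adjusted p = 0.0580) and without BIX01294 replicate 1 or 3 or DMSO replicate 1 or 2 (up to 0.122). IRS2, an adaptor of that receptor, rose 1.15-fold and lost its call without any of the 6 arrays (adjusted p up to 0.117), with quantile normalization (0.0640) and with the replicate block (0.0786). For PDPK1 the row used gave -0.11 ± 0.10 (SE, adjusted p = 0.487 in limma) and did not pass, while of its other 2 rows, in a fit over all rows, 1 fell by 0.67 (adjusted p = 0.00280 in limma) and the other differed by 0.02. In the LKB1 and AMPK list, which senses low energy and also restrains mTORC1, 1 of 9 rose and 1 fell. PRKAB2, a regulatory subunit of AMPK, fell 1.50-fold (adjusted p = 0.000277 in limma), with all treated arrays at 9.46 to 9.55, against 10.06 to 10.13 in DMSO. CAB39, a scaffold of LKB1, rose 1.16-fold and lost its call without BIX01294 replicate 2 or 3 or DMSO replicate 1 or 2 (up to 0.0632).

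Of 15 measured mTORC1 substrates and effectors, 1 rose and 5 fell, beside 12.9% higher and 10.7% lower among all genes. PDCD4, an inhibitor of the translation factor eIF4A that is degraded after phosphorylation by S6 kinase, had the largest change of the 77 genes. It measured 8.50, 8.34 and 8.49 in the BIX01294 arrays, against 10.23, 10.17 and 10.07 in the DMSO arrays. PDCD4 fell 3.27-fold, with no overlap (adjusted p = 8.12e-06 in limma). The translation factor EIF4B fell 1.38-fold, and its other 2 rows fell too in a fit over all rows, by 0.59 and 0.31 on the log2 scale. The autophagy kinase ULK1 fell 1.36-fold and the translation repressor EIF4EBP1, 4E-BP1, 1.34-fold, with adjusted p-values of 0.00236 and 0.00235 in limma. RPS6KB1, which encodes S6 kinase, differed by -0.05 ± 0.071 (SE) and did not pass.

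Of 11 measured transcription factors known to induce DDIT4 or sestrins, 8 fell and none rose, beside 10.7% of all genes that passed as lower. This list too was chosen with earlier results known, so the count is a description. Whether these falls bear on DDIT4 or the sestrins was not tested. DDIT3, also called CHOP, measured 9.25, 8.98 and 8.98 in the BIX01294 arrays, against 10.60, 10.64 and 10.57 in the DMSO arrays, and fell 2.89-fold (adjusted p = 2.68e-05 in limma). CEBPB fell 2.09-fold, EPAS1, the hypoxia factor HIF-2α, 1.75-fold and FOXO4 1.47-fold. ATF4, the factor of the integrated stress response, fell 1.43-fold in the row used, with 11.12, 11.01 and 10.95 in the BIX01294 arrays, against 11.54, 11.55 and 11.55 in the DMSO arrays. Its other row gave 10.84, 10.79 and 10.82 in the BIX01294 arrays, against 10.79, 10.63 and 10.73 in the DMSO arrays, and did not pass (0.10 ± 0.061 SE). With the mean of both rows ATF4 changed by -0.21. HIF1A differed by 0.12 ± 0.054 (SE, adjusted p = 0.165 in limma) and did not pass.

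**Figure D5:**
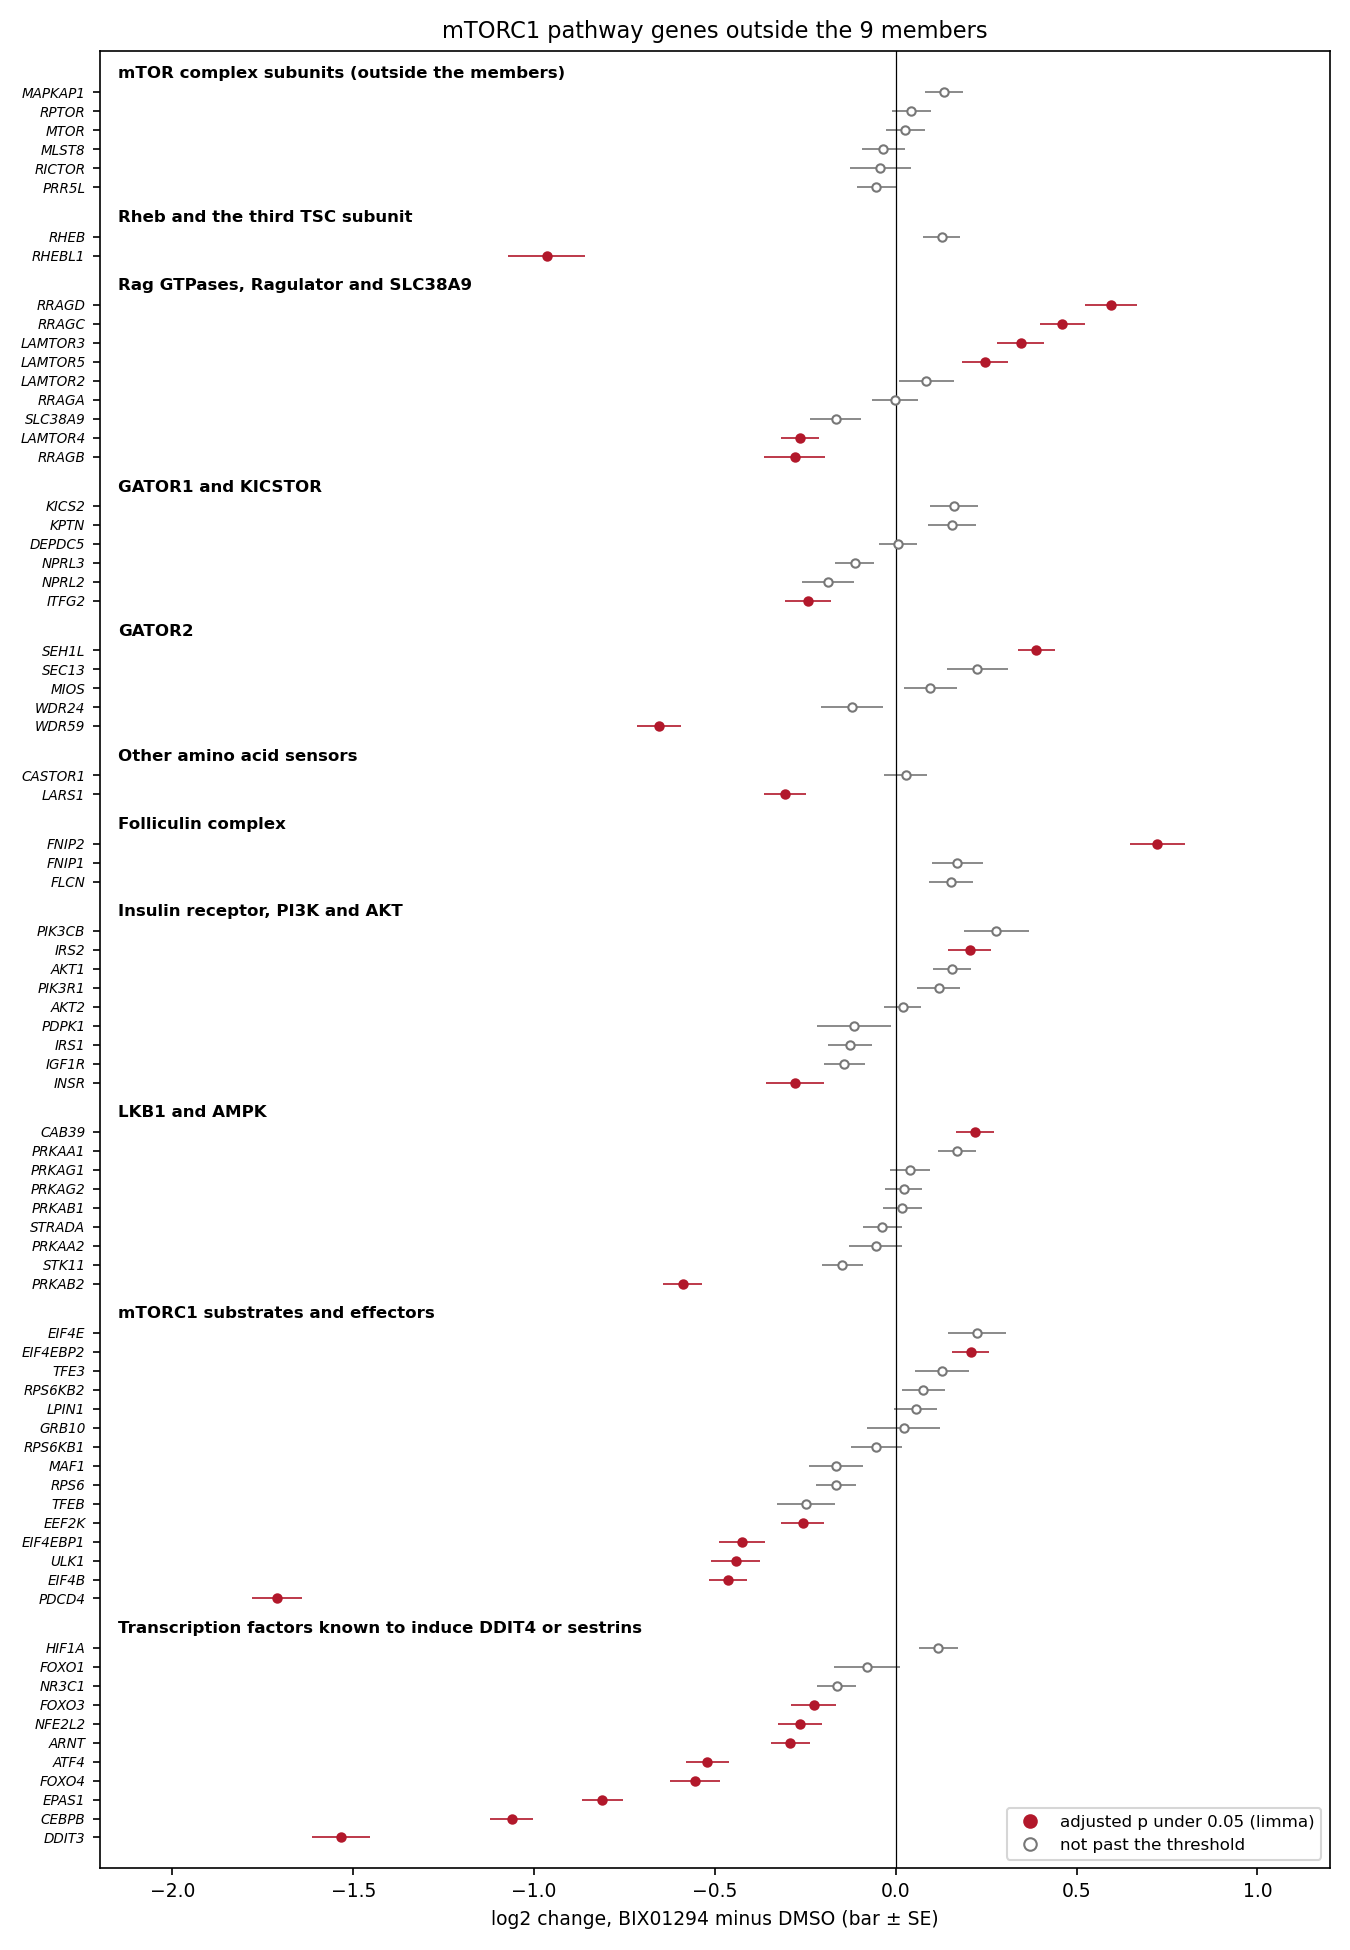
Log2 change (BIX01294 minus DMSO) ± SE of the 77 measured pathway genes, 1 row per gene, grouped by list, filled red where the adjusted p in limma was under 0.05. PDCD4 (-1.71) and DDIT3 (-1.53) lie furthest left, and FNIP2 (0.72) and RRAGD (0.60) furthest right.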

How the data were processed

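The authors deposited 1 log2 expression value per transcript cluster and array. The scale was read from the values, which run from 1.93 to 14.93, and Partek is the only tool named, per the submitters' processing notes. How background was corrected, arrays were normalized and probes summarized is not stated. Of 32321 rows, 19158 carried a single symbol in the platform annotation. The brightest row of each gene, by its mean, was used (18404 genes), and symbols were updated through Entrez identifiers to RefSeq (GRCh38.p14).

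The deposited values entered limma 3.58.1 (R 4.3.3) unchanged, with treatment as the only term, empirical Bayes moderation, two-sided tests and Benjamini-Hochberg adjustment over all genes. No filter on dim genes was applied. The fit was tested on simulated data. Both groups carry replicate numbers 1 to 3. The deviations of same-numbered arrays from their group means correlated at 0.19, -0.18 and 0.05 over genes, so the numbers were not taken as pairs.

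The members, lists and naming rule were chosen with earlier results of these data known. Named were the 9 members, in each list up to 4 genes past the threshold with the largest changes (or, with none, the largest change), ATF4, and the 5 nearest genes of DDIT4 and SESN2. RHEB, RRAGA, PDPK1, CASTOR1, FLCN, FNIP1, RPS6KB1 and HIF1A, and the markers that changed, were named after their values were seen. Alternatives were quantile normalization, centring, a filter at the median level, the mean of all rows, array weights, robust estimation with an intensity trend, the replicate block, limma's treat and leaving out each array.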

Additional observations from a re-analysis of the deposited data

Results flagged for a closer look

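Of 9 rows that carry several gene symbols, among them a gene of the pathway lists, and that the comparison left out, 1 was past the threshold of 0.05 when all 32321 rows were fitted together in limma. It was lower in BIX01294 than in the control arrays. The changes of the 9 rows ran from -0.31 to 0.34, and none is named, since several genes share each row.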

How the results depend on the processing

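DDIT4, SESN1 and SESN2, whose falls were known, stayed between -3.07 and -2.95, -0.30 and -0.24, and -1.92 and -1.64 over all alternatives, as a description. SESN3 and DEPTOR kept their direction and their call under all alternatives, except that neither passed limma's treat, which tests for a change beyond 0.5 on the log2 scale. Under treat 145 of all genes passed, beside 4349, with 2 of the 9 members, DDIT4 and SESN2, beside 7, and 4 of the 77 pathway genes, beside 30. Treat asks for a larger change by construction, and 0.788% of all genes passed it. Leaving out 1 array gave 3018 to 3663 genes, 5 to 7 members and 22 to 29 pathway genes. With the replicate block 3641 genes, 5 members and 27 pathway genes passed. The replicate numbers were not taken as pairs, but the sample titles do not say whether they are. For SESN2, replicate 1 was the lowest and replicate 2 the highest in both groups. Its SE was 0.080 with the block, against 0.13 without. The difference of AKT1S1 was 0.0212 under centring, and leaving out 1 array gave -0.0439 to 0.0209, turning its sign without BIX01294 replicate 3 or DMSO replicate 1. That of DDIT4L ran from -0.0042 to 0.157 when 1 array was left out. The filter at the median level left DDIT4L out. Its level limits what could be seen.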
